A study of Mus musculus with 2 samples.

Results

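Ion channel genes were examined in a comparison of GFP positive with GFP negative cells of the newborn mouse cochlear lateral wall. Members were the rows whose symbol starts like that of a potassium, sodium, calcium, Trp, chloride, anoctamin, Hcn, Tmc, aquaporin, intracellular calcium release or ligand-gated channel family, leaving out Kcnj10, Kcnj13 and Clcn7. The rule found 97 of the 4197 genes in the deposited table, or 34.4% of the 282 annotated mouse genes that match it, with none of 7 Piezo and acid-sensing channel genes among them. It did not use any measured value beyond the table's own limits, which kept genes with an adjusted p of at most 0.00986 and at least a 2-fold difference. The GFP positive cells carried the genotype label wnt1CRE::Ai3 and the GFP negative cells wnt1CRE::Ai4, whereas the shared protocol names wnt1CRE::EYFP mice. All cells came from postnatal day 0 lateral walls, were dissociated in trypsin and were separated by fluorescence-activated sorting. Wnt1-Cre acts in the neural crest, so it marks melanocytes and glia alike, and the GFP negative fraction is a mixture of the remaining lateral wall cells. The labels give 1 sample per fraction, and what 68K and 180K in their titles count is not stated.

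The stria vascularis is a layered, pigmented epithelium that secretes potassium into the endolymph and generates the endocochlear potential that drives hair cell transduction. Its intermediate cells are neural crest derived, melanocyte-like cells, and the study set out to profile them at birth. An ion channel is built from pore-forming subunits, which carry the current, and accessory subunits, which set gating and delivery to the membrane. In the lateral wall such channels recycle potassium through fibrocytes and the stria, move water, and shape calcium signals.

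For each gene the table gives the GFP positive cells as the authors' mean and the GFP negative cells as 1 value, both in normalised reads. Whole reads of 2 GFP positive libraries, here called A and B, were recovered from that mean, and the GFP negative value is 1 library. The listed genes held 17120511 reads in library A, 16584559 in library B and 12114107 in the GFP negative library. Marker lists are given as a description of the fractions, since they were chosen with earlier results of these data known. All 10 melanocyte markers were higher in GFP positive cells, with summed values of 2318726 in GFP positive and 6420 in GFP negative cells, and all 7 fibrocyte markers were lower, with 74512 in GFP positive and 999511 in GFP negative cells. All 8 Schwann and glial markers were also higher (sums of 113227 in GFP positive and 4832 in GFP negative cells), with Erbb3 at 17341 in GFP positive against 409 in GFP negative cells and Sox10, which both lineages use, at 38046 in GFP positive against 743 in GFP negative cells. Of 9 neuron markers 2 were listed, Tubb3 higher at 250.0 in GFP positive against 27.1 in GFP negative cells and Syt1 lower at 248 in GFP positive against 2222 in GFP negative cells. None of 5 markers of marginal cells and strial epithelium was listed. GFP positive cells held 2 of 5 listed pericyte and smooth muscle markers at higher levels, while those of endothelium (2 of 2), macrophages (5 of 5), red cells (3 of 3) and cartilage (3 of 3) were all lower. These markers moved with the channel genes below, and their part in the results was not tested. With 1 GFP negative library, no difference has a replicate check, and every interval given is a 95% exact binomial interval from the reads that covers counting error only.

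Most listed channel genes were lower in GFP positive cells. Of the 97 members, 24 were higher (24.7%) and 73 lower (75.3%), against 43.6% and 56.4% of all 4197 listed genes. At 4-fold or more, where the higher fraction had to reach 5 normalised reads, 16 were higher (16.5% of members, 18.2% of all listed genes) and 51 lower (52.6% of members, 37.2% of all listed genes). The median log2 ratio, with a pseudocount of 1, was -2.13 for the members and -1.34 for all listed genes. At that size the higher side was about as frequent as in the whole table, and the lower side was more frequent. The values were also centred on the median of listed genes at 5 or more normalised reads in both fractions, a shift of -1.31 on the log2 scale. Then 24 members (24.7%) were 4-fold or more higher and 22 lower, against 43.6% and 11.9% of all listed genes. The higher counts were fixed by the shift. Each higher gene was already at least 2-fold higher, so all of them passed 4-fold. Centring left all but 4 members on the same side, with Trpm4, Grik5 and Kcnk5 among the exceptions. In cells sorted in bulk, fewer cells of a type and less RNA per cell cannot be told apart. The authors' deposited table gave each member an adjusted p of 0.00808 or less. edgeR's quasi-likelihood test on the recovered reads called 97 of 97 members, with a largest adjusted p of 0.00583, but it also called 100% of the 4197 listed genes and compares these libraries, not the conditions.

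A single gene held most of the members' reads in GFP positive cells. Summed over members, GFP positive cells held 236898 normalised reads and GFP negative cells 155010. Without Trpm1 the sums on the deposited scale were 93322 in GFP positive and 154825 in GFP negative cells, which turns the order round, whereas under centring the GFP positive sum without Trpm1 was 231815 and the order did not turn. Trpm1 held 60.6% of the members' sum in GFP positive cells, followed by Glrb with 13.1% and Tmc6 with 3.95%. In GFP negative cells the sum was spread more evenly, with Aqp1 at 21.8%, Trpm3 at 7.62% and Cacna1g at 6.61%.

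**Figure D1:**
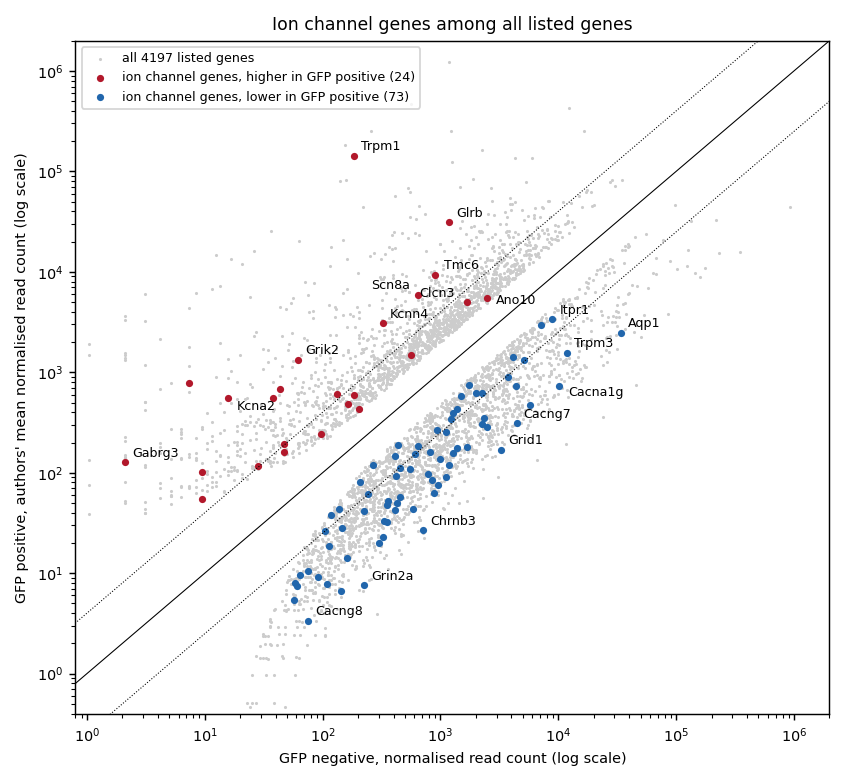
Normalised read counts of all 4197 listed genes (grey), with the 24 ion channel genes that were higher (red) and the 73 that were lower (blue) in GFP positive cells. The y axis is the authors' GFP positive mean and the x axis the GFP negative value, both on log scales, the solid line marks equal values and the dotted lines 4-fold. Trpm1 stands far above the other channel genes at 143576 in GFP positive against 185 in GFP negative cells, and Aqp1 is the highest channel gene of GFP negative cells at 33808.

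Trpm1, the founding melastatin-type Trp cation channel, is known from melanocytes and from the retina, where it carries the light response of ON bipolar cells. It had 140218 and 146934 normalised reads in GFP positive libraries A and B, against 185 in GFP negative cells. It was 777-fold higher, with a 95% interval of 669.8 to 904. The GFP negative value was 0.129% of the GFP positive mean, and that of the summed melanocyte markers was 0.316%. Of the markers' 6420 in GFP negative cells, Kit held 1728 and Ednrb 1229. Singly, the markers ran from 3.06-fold higher for Kit to 1755-fold higher for Tyrp1, with Tyr at 1183-fold and Mlana at 615-fold. Trpm1 thus lay within their range. Trpm1 has an upstream and a downstream start, and the promoters of both in RefSeq (GRCm38.p6, plus strand, 250 bases before to 50 after the start) are shown because this gene held most of the members' reads in GFP positive cells. Capitals mark the E-box letters CACGTG, and CATGTG or its reverse CACATG, which MITF and other basic helix-loop-helix factors are known to bind.
Trpm1, chr7:64153585-64153884, plus strand: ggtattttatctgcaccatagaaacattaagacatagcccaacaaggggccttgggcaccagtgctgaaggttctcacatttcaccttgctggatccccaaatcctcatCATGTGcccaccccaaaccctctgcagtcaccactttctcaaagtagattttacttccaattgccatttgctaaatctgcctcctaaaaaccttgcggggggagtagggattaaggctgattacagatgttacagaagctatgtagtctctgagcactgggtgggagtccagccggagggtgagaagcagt
Trpm1, chr7:64185209-64185508, plus strand: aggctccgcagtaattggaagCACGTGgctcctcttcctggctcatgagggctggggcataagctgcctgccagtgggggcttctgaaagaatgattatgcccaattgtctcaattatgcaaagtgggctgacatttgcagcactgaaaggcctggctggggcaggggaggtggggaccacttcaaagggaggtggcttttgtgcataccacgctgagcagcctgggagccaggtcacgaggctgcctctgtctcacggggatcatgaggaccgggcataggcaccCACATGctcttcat
CATGTG began 141 bases before the upstream start, and CACGTG began 229 bases before the downstream one, with CACATG in the transcribed part after it. The letters alone are a description of these windows and show no binding. Trpm1 also hosts the miRNA miR-211, whose mature strand in RefSeq is shown with its seed, bases 2 to 8, in capitals.
mmu-miR-211-5p, chr7:64205831-64205852, plus strand: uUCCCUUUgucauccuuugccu
The table does not list Mir211, so no level is given for it.

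CACGTG was searched in the RefSeq promoters of all members, and since it reads the same on both strands the search covers both. A promoter was found for 70 of the 97 members. At least 1 promoter held CACGTG in 7 of 19 higher members (36.8%) and in 2 of 51 lower members (3.92%). The same letters stood in 8.09% of the 27025 genes of the promoter table, in 12.6% of the 1172 matched listed genes higher in GFP positive cells and in 9.16% of the 1463 lower ones. These counts are small, genes with several promoters have more chances to hold a match, and no test was made. The 7 higher members were Trpm1, Tmc8, Chrna7, Tmc6, Kcnn4, Trpv3 and Kcnj2, and the 2 lower ones Kcnk5 and Kcnab1. Below are the stretches around each match in the 6 higher genes besides Trpm1, read along the gene's strand, with CACGTG in capitals.
Tmc8, chr11:117782260-117782305, plus strand: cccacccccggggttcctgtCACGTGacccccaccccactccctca
Chrna7, chr7:63212567-63212612, minus strand: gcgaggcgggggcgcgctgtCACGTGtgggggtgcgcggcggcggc
Tmc6, chr11:117780670-117780715, minus strand: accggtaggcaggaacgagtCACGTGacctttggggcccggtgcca
Tmc6, chr11:117780646-117780691, minus strand: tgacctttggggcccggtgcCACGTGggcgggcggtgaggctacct
Kcnn4, chr7:24370110-24370155, plus strand: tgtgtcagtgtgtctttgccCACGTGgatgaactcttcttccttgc
Trpv3, chr11:73267433-73267478, plus strand: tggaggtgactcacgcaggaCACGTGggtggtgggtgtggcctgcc
Kcnj2, chr11:111066060-111066105, plus strand: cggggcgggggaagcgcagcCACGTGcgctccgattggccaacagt
The extended letters TCACGTGA, which contain CACGTG and also read the same on both strands, in 1.12% of all genes of the table, were present in Tmc8 and Tmc6 among the 19 higher members and in 0 of the 51 lower members. In Tmc8 CACGTG began 17 bases before the start, and in Tmc6 the first match began 3 bases before it. The form CATGTG or CACATG was present in 1 higher member (5.26%, Trpm1) and in 4 lower members (7.84%, Kcnab2, Cacna1c, Cacnb1 and Trpm6), against 15.9% of all genes.

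The other Trp channels were mostly lower. Of 11 listed Trp genes, 3 were higher and 8 lower, of which Trpm4 turned to the higher side under centring. The lower share of 72.7% was near the 75.3% of all members. Trpv3, a warmth-activated channel known from keratinocytes, had 135 and 96.9 normalised reads in GFP positive libraries A and B, against 28.2 in GFP negative cells, and was 4.11-fold higher (2.77 to 6.41). Trpv2, a relative that responds to membrane stretch and strong heat, had 449 and 518 in GFP positive A and B, against 165 in GFP negative cells, and was 2.93-fold higher (2.47 to 3.48). Trpv1, the capsaicin receptor, lies next to Trpv3 in the genome and went the other way. It had 11.2 and 8.07 normalised reads in GFP positive A and B and 64.7 in GFP negative cells, which is 6.73-fold lower (3.98 to 11.7). Trpm3, a heat and steroid-sensitive channel, had the highest level per length among the Trp genes in GFP negative cells, with 1847 and 1292 in GFP positive A and B, against 11807 in GFP negative cells, and was 7.52-fold lower. Trpm4 and Trpm5, the calcium-activated monovalent cation channels, were 2.31-fold lower and 7.88-fold lower. The osmosensitive Trpv4 was 3.25-fold lower, the magnesium channel Trpm6 6.02-fold lower and Trpc6 9.95-fold lower. Within the Trpm group, then, 1 gene was higher and 4 were lower on the deposited scale.

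Inhibitory receptor subunits had large ratios. Gabrg3, a gamma subunit of GABA-A receptors, had 133 and 123 normalised reads in GFP positive libraries A and B, against 2.09 in GFP negative cells. Its ratio of 61.3-fold higher rests on 2 GFP negative reads, so its interval runs from 16.8 to 509.9. Glrb, the glycine receptor beta subunit that anchors the receptor to gephyrin, had 31467 and 30640 in GFP positive A and B, against 1175 in GFP negative cells, and was 26.4-fold higher (24.9 to 28.1). In both GFP positive libraries these genes lay far above the GFP negative value. Gabra4, the only alpha subunit listed, was lower, with 64.2 and 59.5 in GFP positive A and B, against 243 in GFP negative cells, or 3.93-fold lower (3.15 to 4.91). The 4 listed genes are 16.7% of the 24 annotated GABA-A and glycine receptor genes, and no glycine receptor alpha subunit was among them. A gene outside the table has no value here, because the table holds only genes past the authors' limits. Gabrg3 lies beside Oca2, a melanosome gene, on chromosome 7, and Oca2 averaged 141 in GFP positive cells, against 2.09 in GFP negative cells, or 67.7-fold higher (18.6 to 562).

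Of 10 listed glutamate receptor genes 1 was higher on the deposited scale, and Grik5 joined it under centring. On the deposited scale 90% were lower, against 75.3% of all members and 56.4% of all listed genes. Grik2, a kainate receptor subunit, had 1321 and 1355 normalised reads in GFP positive libraries A and B, against 61.6 in GFP negative cells, and was 21.7-fold higher (16.8 to 28.6). Its heteromer partner Grik5, a kainate subunit that forms channels only with another subunit, had the highest level per length among these genes in both fractions and was lower, with 2948 and 2945 in GFP positive A and B, against 7140 in GFP negative cells, or 2.42-fold lower (2.34 to 2.51). Grik1, another kainate subunit, was 7.95-fold lower (6.83 to 9.39). The AMPA receptor subunits Gria3 and Gria4 were 6.09-fold lower and 3.21-fold lower, with 771 and 676 in GFP positive A and B, against 4408 in GFP negative cells for Gria3. Grin2a, an NMDA receptor subunit, had 11 and 5 reads in GFP positive libraries A and B against 214 in the GFP negative library, and was 29.2-fold lower (17.4 to 51.4). Its relative Grin2d was 9.89-fold lower. The delta receptor Grid1, which organises synapses by binding outside partners, was 19.5-fold lower (17.4 to 21.7). It had 182 and 156 normalised reads in GFP positive A and B and 3289 in GFP negative cells. A scaffold protein gene matched the symbol rule by name and is no channel subunit. On the deposited scale Grik2 thus stood beside 2 kainate subunits on the lower side, and the AMPA and NMDA receptor genes listed were all lower.

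**Figure D2:**
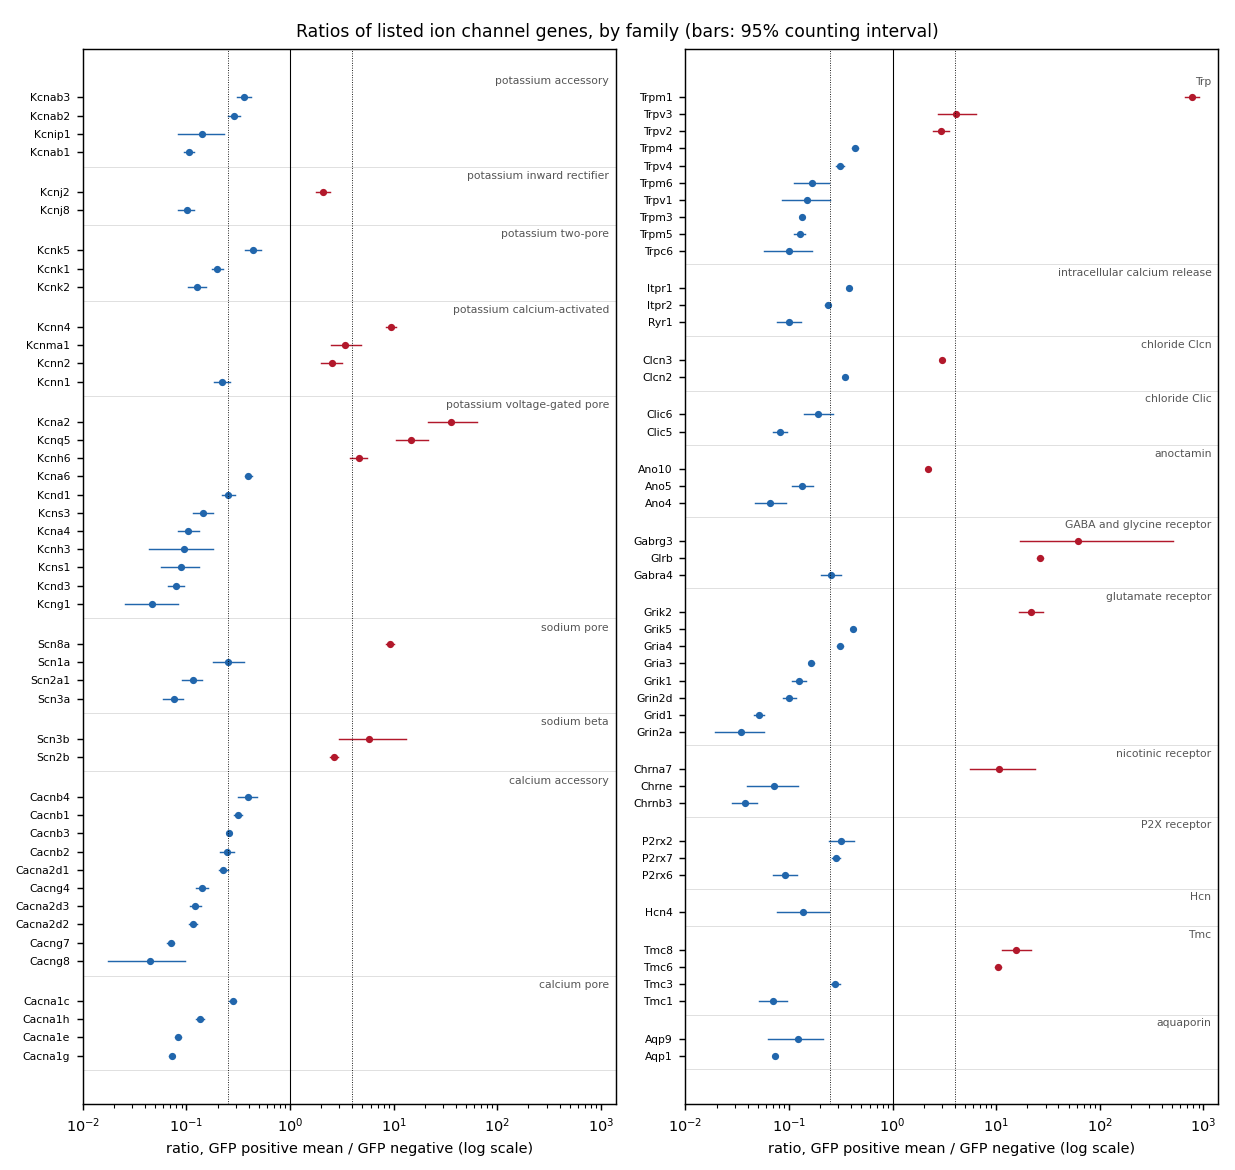
Ratio of the GFP positive mean to the GFP negative value for 88 of the 97 members, on a log scale and ordered within families, with bars for the 95% counting interval. Red points are higher and blue points lower in GFP positive cells, the solid line marks equal values and the dotted lines 4-fold. All 14 genes named for calcium channels lie left of equality, where 75.3% of the 97 members were lower. Trpm1 lies furthest right at 777-fold higher.

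Potassium channels were the largest group, with 26 listed genes, of which 7 were higher and 19 lower, 1 of the lower ones (Kcnk5) turning under centring. The lower share of 73.1% was near the 75.3% of all members. Kcna2, a delayed rectifier of the Shaker type, had 584 and 536 normalised reads in GFP positive libraries A and B, against 15.7 in GFP negative cells, and was 35.7-fold higher (21.6 to 64.2). Kcnq5, which carries the slow M-type current, had 568 and 547 in GFP positive A and B, against 37.6 in GFP negative cells, and was 14.8-fold higher (10.7 to 21.3). Kcnh6, of the Erg type, was 4.61-fold higher (3.81 to 5.54) on the mean. Its libraries differed, with 530 and 714 reads in A and B and a ratio of A to B of 0.685 (0.611 to 0.767), yet both lay above the 126 reads of the GFP negative library. Of the 13 voltage-gated pore genes the other 10 were lower. The largest differences were in Kcng1, a silent subunit that modifies other channels, at 21.4-fold lower (12.1 to 39.3), and Kcnd3, an A-type channel, at 12.6-fold lower (10.6 to 14.9). Kcng1 rests on 11 and 3 reads in GFP positive libraries A and B against 136 in the GFP negative library. Kcnd3 had 84.7 and 66.6 normalised reads in GFP positive A and B and 953 in GFP negative cells. Kcna6, which had the highest level per length of the 13 in GFP negative cells, was 2.54-fold lower (2.35 to 2.74), with 619.9 and 552 in GFP positive A and B, against 1488 in GFP negative cells. Under centring the log2 ratio of Kcna6 was -0.03, so the size of its difference depends on the scale. The remaining 7 lower genes, Kcna4, Kcnd1, Kcnh3, Kcns1 and Kcns3 among them, lay between 3.93-fold lower for Kcnd1 and 11.4-fold lower for Kcns1. Like Kcng1, Kcns1 and Kcns3 are silent subunits, and all 3 of these were lower.

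Of 4 listed calcium-activated potassium channels 3 were higher, where 24.7% of all members and 43.6% of all listed genes were. Kcnn4, the intermediate conductance channel, had 3002 and 3152 normalised reads in GFP positive libraries A and B, against 325 in GFP negative cells, and was 9.47-fold higher (8.45 to 10.6). Kcnma1, the large conductance BK channel, was 3.43-fold higher (2.51 to 4.79), with 167 and 155 in GFP positive A and B, against 47.0 in GFP negative cells. Kcnn2, a small conductance channel, was 2.52-fold higher (2.01 to 3.17), with 226 and 263 in GFP positive A and B, against 97.1 in GFP negative cells. Kcnn1, from the same small conductance family, was lower, with 100.5 and 83.7 in GFP positive A and B, against 421 in GFP negative cells, or 4.57-fold lower (3.82 to 5.43). Of the inward rectifiers, Kcnj2, a strong rectifier that holds resting potentials, had 442 and 414 normalised reads in GFP positive A and B and 205 in GFP negative cells, and was 2.09-fold higher (1.79 to 2.46). Kcnj8, the pore of ATP-sensitive channels in vessels, had 61.4 and 108 normalised reads in GFP positive A and B and 844 in GFP negative cells, and was 9.96-fold lower (8.54 to 11.9). Its neighbour on chromosome 6, Abcc9, encodes the sulfonylurea receptor that completes this channel and was also lower, with a mean of 234 in GFP positive cells, against 2536 in GFP negative cells. The 3 two-pore channels, which carry background potassium current, were all lower (Kcnk5 only without centring), with Kcnk1 at 5.03-fold lower (4.41 to 5.72), Kcnk2 at 7.96-fold lower (6.42 to 9.72) and Kcnk5 at 2.28-fold lower (1.91 to 2.73). The 4 accessory genes were lower as well. Kcnab1, a cytosolic beta subunit of Shaker-type channels, had 196 and 161 in GFP positive A and B, against 1683 in GFP negative cells, and was 9.41-fold lower. Kcnab2 and Kcnab3 were 3.45-fold lower and 2.80-fold lower, and Kcnip1, a calcium-binding partner of Kcnd channels, was 7.10-fold lower. The 2 inward rectifiers left out of the member list, Kcnj13 and Kcnj10, had 25291 and 20292 in GFP positive cells and 36.5 and 62.7 in GFP negative cells. The other gene left out, the lysosomal chloride exchanger Clcn7, had 8683 in GFP positive and 2714 in GFP negative cells.

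Sodium channels were divided by gene, with 4 higher and 4 lower of 8 on the deposited scale, 1 of the lower ones turning under centring. Their higher share of 50% stood against 24.7% of all members and 43.6% of all listed genes. Scn8a, the pore Nav1.6, had 6018 and 5792 normalised reads in GFP positive libraries A and B, against 640.0 in GFP negative cells, and was 9.23-fold higher (8.51 to 10.0). All 3 listed beta subunits, which bind the pore and act in cell adhesion, were higher. Scn2b had 1522 and 1474 in GFP positive A and B, against 566 in GFP negative cells, and was 2.65-fold higher (2.42 to 2.91). Scn3b was 5.84-fold higher (2.96 to 13.1), on 55 and 58 reads in GFP positive libraries A and B against 9 in the GFP negative library. The other 4 pore genes were lower. Scn3a was 13.3-fold lower (10.7 to 16.9), with 38.2 and 49.4 in GFP positive A and B, against 583 in GFP negative cells, and Scn2a1, the symbol in the table for Scn2a, was 8.68-fold lower. Scn1a was 3.93-fold lower. On the deposited scale Scn8a was therefore the single pore gene on the side of the beta subunits. Per kb of exon it had 375 normalised reads in GFP positive cells, where Scn2a1 had 3.89, Scn3a 3.52 and Scn1a 2.38.

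All 14 listed genes named for voltage-gated calcium channels were lower, against 75.3% of all members and 56.4% of all listed genes. The 4 pores were Cacna1g and Cacna1h, which carry T-type current, Cacna1e, which carries R-type current, and Cacna1c, the L-type pore of muscle and heart. Cacna1g had 655 and 817 normalised reads in GFP positive libraries A and B, against 10243 in GFP negative cells, and was 13.9-fold lower (13.2 to 14.8). Cacna1e had 521 and 429 in GFP positive A and B, against 5781 in GFP negative cells, and was 12.2-fold lower (11.3 to 13.0). Cacna1h and Cacna1c were 7.42-fold lower and 3.57-fold lower, with 570.5 and 684 in GFP positive A and B, against 2239 in GFP negative cells for Cacna1c. The beta subunits, which bring the pore to the membrane, had a median log2 ratio of -1.82, against -3.24 for the 4 pores, although the pore Cacna1c differed less than Cacnb2 and Cacnb3. Cacnb3, the highest of them per length, had 1359 and 1278 normalised reads in GFP positive A and B and 5136 in GFP negative cells and was 3.90-fold lower (3.71 to 4.08), and Cacnb1, Cacnb2 and Cacnb4 lay between 2.56-fold lower and 4.08-fold lower. The alpha2delta subunits Cacna2d1, Cacna2d2 and Cacna2d3 were 4.39-fold lower, 8.72-fold lower and 8.23-fold lower. Cacng4, Cacng7 and Cacng8 are named for calcium channels but serve mainly as AMPA receptor partners. Cacng7 had 299 and 327 in GFP positive A and B, against 4424 in GFP negative cells, and was 14.1-fold lower (13.0 to 15.4). Its neighbour Cacng8 was 22.3-fold lower (10.2 to 57.1), on 4 and 3 reads in GFP positive libraries A and B against 72 in the GFP negative library, and Cacng4 was 7.15-fold lower. Summed over the 14 genes, GFP positive cells had 5227 and GFP negative cells 38041 normalised reads. These 3 Cacng genes thus lay on the same side as the AMPA subunits Gria3 and Gria4.

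The 3 listed channels that release calcium from internal stores were also lower, as were 75.3% of all members and 56.4% of all listed genes. Itpr1, an inositol trisphosphate receptor, had 3503 and 3254 in GFP positive A and B, against 8885 in GFP negative cells, and was 2.63-fold lower (2.54 to 2.71). Under centring its log2 ratio was -0.08, so the size of its difference depends on the scale. Itpr2 was 4.21-fold lower (3.99 to 4.47), and Ryr1, the ryanodine receptor of skeletal muscle, was 10.1-fold lower (7.69 to 13.2), with 43 and 26 reads in GFP positive libraries A and B against 320 in the GFP negative library. Of 7 skeletal muscle markers 1 was listed, Tnnt3, at 14.8 in GFP positive against 116 in GFP negative cells.

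Among cation channels gated by acetylcholine and ATP, 1 of 6 listed genes was higher, where 24.7% of all members and 43.6% of all listed genes were. Chrna7, the nicotinic subunit that forms channels on its own, had 103 and 97.9 normalised reads in GFP positive libraries A and B, against 9.40 in GFP negative cells, and was 10.7-fold higher (5.54 to 23.8). Chrnb3 had 25.1 and 28.2 normalised reads in GFP positive A and B and 710.0 in GFP negative cells, and was 26.6-fold lower (20.2 to 35.8). Chrne, the adult muscle endplate subunit, was 14.0-fold lower (8.24 to 25.4). The 3 P2X receptors, opened by extracellular ATP, were all lower. P2rx7, known from macrophages, had 413 and 278 in GFP positive A and B, against 1223 in GFP negative cells, and was 3.54-fold lower (3.20 to 3.86), P2rx6 was 10.9-fold lower (8.32 to 14.3) and P2rx2 was 3.17-fold lower. All 5 macrophage markers were lower too, with summed values of 965.1 in GFP positive and 5611 in GFP negative cells. Hcn4, a pacemaker channel gene, was 7.32-fold lower (4.07 to 13.0), with 15 and 2 reads in GFP positive libraries A and B against 56 in the GFP negative library, the widest gap between A and B among the members.

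**Figure D3:**
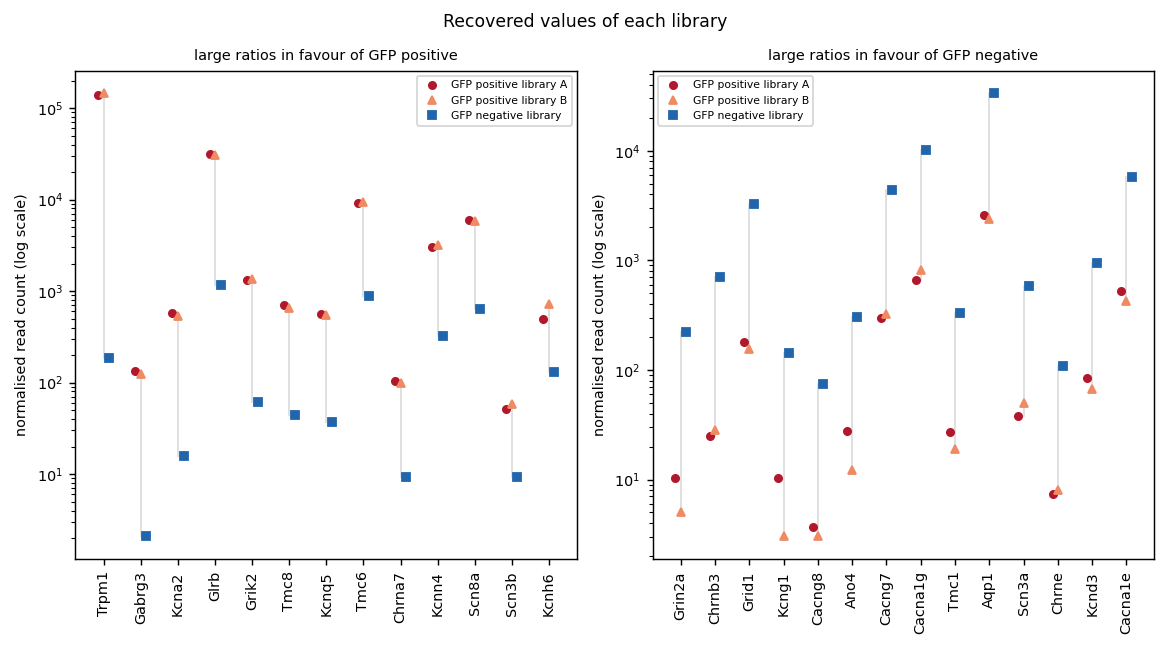
Normalised read counts of 13 members with large ratios in favour of GFP positive and 14 in favour of GFP negative cells, on log scales, with a circle for GFP positive library A, a triangle for library B and a square for the GFP negative library. In each of the 27 genes neither GFP positive library crosses the GFP negative value, and A and B are furthest apart for Kcng1 (11 and 3 reads). The genes were picked by the ratio of the mean of A and B, so the first point was largely set by that choice.

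The Tmc family showed a neighbouring pair of higher genes. Tmc6 and Tmc8, known as EVER1 and EVER2 from a human skin disease and as zinc transporter partners, lie side by side on chromosome 11 on opposite strands and share 40 exon bases. Tmc6 had 9214 and 9523 normalised reads in GFP positive libraries A and B, against 892 in GFP negative cells, and was 10.5-fold higher (9.80 to 11.3). Tmc8 had 703 and 656 in GFP positive A and B, against 43.9 in GFP negative cells, and was 15.5-fold higher (11.4 to 21.6). Tmc1, a pore subunit of the hair cell transduction channel, was lower, with 29 and 19 reads in GFP positive libraries A and B and 314 in the GFP negative library, or 14.2-fold lower (10.4 to 19.5). Of 7 hair cell markers 1 was listed, Otof, at 27.2 in GFP positive against 179.6 in GFP negative cells. Tmc3 was 3.56-fold lower (3.19 to 3.96), and 43.9% of its exon bases are shared with an unlisted antisense gene, so without stated strand use its reads cannot be told apart from that gene's. The same limit holds for Kcna6, where 39.6% of the exon bases are shared with an antisense gene, and at 16% or less for the others.

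Chloride channels and water channels were mostly lower. Of 7 listed chloride channel genes 5 were lower (71.4%), near the 75.3% of all members, and the 2 listed aquaporins were lower. Clcn3, an endosomal chloride and proton exchanger, had 5081 and 4914 in GFP positive A and B, against 1670 in GFP negative cells, and was 2.99-fold higher (2.84 to 3.16). Clcn2, an inwardly rectifying plasma membrane channel, was lower, with 1529 and 1305 in GFP positive A and B, against 4103 in GFP negative cells, or 2.90-fold lower (2.75 to 3.03). Ano10, a member of the anoctamin family of calcium-activated chloride channels and lipid scramblases, was the highest anoctamin per length. It had 5165 and 5730 normalised reads in GFP positive A and B and 2470 in GFP negative cells, and was 2.21-fold higher (2.10 to 2.30). Ano4 and Ano5 were 15.1-fold lower (10.8 to 21.1) and 7.41-fold lower. The intracellular chloride channel proteins Clic5, found in hair bundles and other actin-rich structures, and Clic6 were 12.2-fold lower (10.5 to 14.3) and 5.19-fold lower. Aqp1, a water channel, had 2599 and 2367 normalised reads in GFP positive libraries A and B, against 33808 in GFP negative cells, and was 13.6-fold lower (13.2 to 14.0). Aqp9, which also passes glycerol, was 8.21-fold lower, on 5 and 10 reads in GFP positive libraries A and B against 58 in the GFP negative library. Fibrocytes, vessels and red cells are all known to hold Aqp1. The 7 fibrocyte markers lay between 6.69-fold lower and 22.6-fold lower, the endothelial markers Tek and Emcn were 4.07-fold lower and 16.8-fold lower, and the 3 red cell markers lay between 40.4-fold lower and 65.8-fold lower. Of the 5 listed pericyte and smooth muscle markers, Rgs5, Pdgfrb and Des lay between 14.1-fold lower and 15.8-fold lower, while Cspg4 and Myh11 were 6.47-fold higher and 5.53-fold higher. The part of these cells in the Aqp1 result was not tested.

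Levels between genes were compared as normalised reads per kb of exon (union of exons in GENCODE M21). In GFP positive cells the order was led by Trpm1 at 9737, Glrb at 6671 and Tmc6 at 2290 per kb, followed by Aqp1 at 945.1, Ano10 at 922, Kcnn4 at 602 and Grik5 at 570.1. In GFP negative cells it was Aqp1 at 12869, then Cacng7 at 1812, Grik5 at 1382, Cacnb3 at 1281 and Cacna1g at 1010. Aqp1 and Grik5 thus ranked high per length in both fractions although both were lower in GFP positive cells. Aqp1 was 13.6-fold lower, within the 6.69-fold to 22.6-fold of the 7 fibrocyte markers, and Grik5 was 2.42-fold lower. How much of the Aqp1 level in the GFP positive fraction came from other cells was not tested. Some of the largest ratios came from low levels. Gabrg3 had 10.7 normalised reads per kb in GFP positive cells and 0.175 in GFP negative cells, and Kcna2 had 47.0 normalised reads per kb in GFP positive cells and 1.31 in GFP negative cells.

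**Figure D4:**
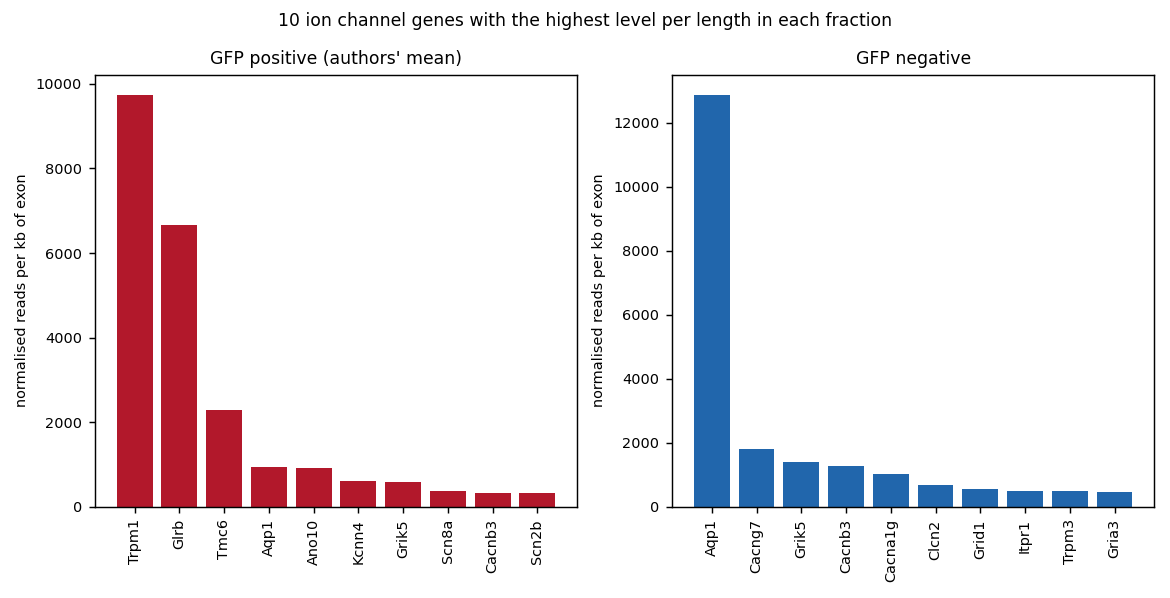
Level per length, in normalised reads per kb of exon, of the 10 members with the highest level in GFP positive cells (left, authors' mean) and in GFP negative cells (right), each panel with its own linear axis from 0. Trpm1 and Glrb lead in GFP positive cells at 9737 and 6671, and Aqp1 leads in GFP negative cells at 12869.

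The 2 GFP positive libraries gave the same direction for all 97 members. Each member was listed by the mean of A and B against the same GFP negative library. The shared direction was therefore largely set by the listing and is no replicate check. In 34 members (35.1%) the interval of the ratio of A to B left out 1, close to the 38.5% of all listed genes. Of these 34, A was above B in 22 and below in 12. The libraries differed by more than 2-fold in 5 members, Hcn4, Kcng1, Ano4, Grin2a and Aqp9, which all had 30 reads or fewer in each GFP positive library. The lower members kept between 3.42% and 43.8% of the GFP negative value in GFP positive cells, with a median of 14%. Among the marker lists with 2 or more listed genes that were all lower, the summed values kept 1.6% for red cells, 4.88% for cartilage, 7.45% for fibrocytes, 8.39% for endothelium and 17.2% for macrophages. The lists with markers on both sides kept 35.4% for pericytes and smooth muscle and 22.1% for neurons. These are sums over a list, whereas the range and median of the members are of single genes.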

How the data were processed

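Cells of the lateral wall of the cochlea were sorted into GFP positive and GFP negative fractions and sequenced from an Illumina TruSeq V2 library, per the labels' protocols. Reads were aligned with STAR to mm9, per the submitters' processing notes. How reads were counted (tool, annotation, strand), normalised and tested is not given in the sources used here. Per gene, the authors deposited a signal of normalised reads for GFP negative cells and a mean for GFP positive cells. For 4197 genes past their limits, the authors deposited the ratio of these values and its log2, with raw and adjusted p-values (each p-value as deposited).

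The GFP negative values were whole reads divided by a size factor of 0.958 in 100% of genes (tolerance 1e-06 reads). Each GFP positive mean fitted exactly 1 pair of whole reads (100% of genes, relative tolerance 1e-13), with size factors of 1.07 and 0.991 for libraries A and B. The labels name 1 GFP positive sample and the column of means carries 180K, not 68K, so A and B cannot be tied to a label and the authors' mean is given without an SD. Nothing says whether the libraries came from separate animals.

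Ratios are the deposited mean over the GFP negative value, and log2 ratios use a pseudocount of 1. A gene was counted at a fold of 4 where the higher fraction reached 5 normalised reads. Intervals are exact binomial (Clopper-Pearson, 95%). No test across genes was a main result, because the labels give 1 sample per fraction. edgeR 4.0.16, fitted to the recovered reads of all 4197 genes in 3 libraries, was an alternative with Benjamini-Hochberg adjustment, and was tested on simulated data. Values in full go to the 15 members that differ most on the log2 scale each way and, in each family, to the most abundant member and the largest ratio each way, which names 50 genes, some of which are not reported here. Exon lengths and overlaps come from GENCODE M21, and gene order, promoters and the miRNA from RefSeq (GRCm38.p6). As these builds differ from mm9, coordinates are given only for the RefSeq sequences. Members and lists were chosen with earlier results of these data known. Python 3.11.15, numpy 2.4.6, pandas 2.3.3, scipy 1.17.1 and matplotlib 3.10.9 were used.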

Additional observations from a re-analysis of the deposited data

How the results depend on the processing

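Dropping the filter could not change the count of members at 4-fold or more (16 higher, 51 lower). Every member reached at least 54.85 normalised reads in its higher fraction. A fold of 2 had to return all 24 higher and 73 lower members, because the table lists only genes of at least 2-fold. The 4-fold count stayed within 1.5 times under pseudocounts of 0.5 and 5, with a minimum of 100, and with library A or B alone. edgeR's quasi-likelihood test set no fold limit and called every listed gene, so it gave no 4-fold count to compare. At a fold of 8 there were 29 lower. Centring used the median of listed genes at 5 or more in both fractions, a shift of -1.31 on the log2 scale. It left 22 lower and gave 24 higher, against 499 lower (11.9%) and 1831 higher (43.6%) of all listed genes. It moved the members' median log2 ratio to -0.82. The 24 and 1831 are all the genes that were higher on the deposited scale, so these higher counts were fixed by the shift. Scaling to the listed total, a shift of -0.37, moved that median to -2.50. Centring turned 4 members to the higher side (among them Trpm4 0.11, Grik5 0.04 and Kcnk5 0.13 on the log2 scale), and no other setting turned any. By construction, scaling to the listed total lowers and centring raises the log2 ratio of each gene. Of 397 recomputed values of single named genes, 294 stayed within the counting interval, 103 went beyond it and 0 changed sign among genes at 4-fold or more. The shifts of -1.31 and -0.37 were smaller than 4-fold, so neither could turn such a gene. Members with few reads, such as Gabrg3 with 2 GFP negative reads, are limited by depth. No paired analysis was possible because the labels give 1 sample per fraction and no replicate numbers.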

Other observations

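From a list of 71 channel genes and channel partners outside these families 15 were in the table, 9 of them higher and 6 lower in GFP positive cells. Their median log2 ratio was 1.62, beside -2.13 for the 97 members and -1.34 for all listed genes. The list was chosen by hand with earlier results of these data known, so these medians are a description only. Mcoln3, the endosomal and lysosomal cation channel whose mutation causes deafness and pigment loss in varitint-waddler mice, averaged 33821 normalised reads in GFP positive cells, against 617 in GFP negative cells, and was 54.8-fold higher (50.5 to 59.5). Fxyd3, a small regulator of the sodium pump, averaged 874 normalised reads in GFP positive cells, against 15.7 in GFP negative cells, and was 55.8-fold higher (33.7 to 99.8). Fxyd7 and Fxyd1, of the same family, were 10.9-fold higher and 4.06-fold higher. Ttyh2, a tweety family membrane protein, averaged 6518 normalised reads in GFP positive cells, against 814 in GFP negative cells, and was 8-fold higher, and the voltage-gated proton channel Hvcn1 was 4.95-fold higher. Unc79, a partner of the sodium leak channel, was 3.16-fold higher, the store-operated channel Orai3 3.07-fold higher and the mitochondrial porin Vdac2 2.80-fold higher. Orai2, a relative of Orai3, went the other way and was 4.76-fold lower. Lrrc38, an accessory subunit of BK channels, had 9 and 5 reads in GFP positive libraries A and B against 209 in the GFP negative library, while the BK pore Kcnma1 was 3.43-fold higher. The other lower genes were Clca5 at 28.5-fold lower, Panx2 at 8.70-fold lower, Panx3 at 7.07-fold lower and Stac3 at 2.35-fold lower.

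Some genes next to members had large values of their own in the table. Mtmr10, beside Trpm1, averaged 13341 in GFP positive and 1750 in GFP negative cells. Aspa, beside Trpv3, averaged 274 in GFP positive and 9.4 in GFP negative cells, and Slc4a8, beside Scn8a, averaged 6531 in GFP positive and 719 in GFP negative cells. Other neighbours went against their member. Rorb, beside the lower Trpm6, averaged 425 in GFP positive and 3.13 in GFP negative cells. Pgr, beside the lower Trpc6, averaged 240 in GFP positive and 6.27 in GFP negative cells. Klf9, beside the lower Trpm3, averaged 1645 in GFP positive and 355 in GFP negative cells.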
